A study of Homo sapiens with 12 samples.

Results

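The genes described here are 42 genes of glycolysis and of the cellular response to low oxygen. They were chosen by name and role, with earlier results of these data known. In all, 19775 genes were measured. Each gene was read from 1 probe set, the one with the highest mean over the 12 arrays among those assigned to that gene alone, and 39 of the 42 were measured in this way. The other 3, CA9, SLC16A1 and SLC16A3, had no such probe set in the annotation used and were not analysed here. IGROV-1, a human ovarian carcinoma cell line, was profiled in 4 groups of 3 arrays. The groups shCXCR4_I and shCXCR4_II were individual clones, each carrying a plasmid with a different short hairpin RNA against CXCR4. The group Mock was a pool of clones carrying a plasmid with a scrambled RNA. These 3 groups had been transfected with a lipid reagent and kept in 4 µg/ml puromycin for 30 days, and the group Parental was the untransfected line. Knockdown and origin from a single clone therefore changed together between the clones and Mock, and their parts cannot be told apart. The labels do not say whether the 3 arrays of a group came from separate cultures, so each p-value reflects no more than the array-to-array spread within groups, which could be technical.

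Glycolysis splits glucose into pyruvate in the cytosol. Its upper steps spend ATP and its lower steps regain it, and lactate dehydrogenase turns pyruvate into lactate where the mitochondria do not take it up. Under low oxygen the prolyl hydroxylases that mark the alpha subunits of hypoxia-inducible factor (HIF) for destruction slow down, and the stabilised factor raises many glycolysis genes and a set of stress genes. Tumour cells often run this programme in oxygen too, and CXCR4, the receptor for the chemokine CXCL12, is itself a known HIF target.

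All values are log2 intensities as the authors deposited them, and a difference of 1 is a 2-fold change. Differences were tested with limma on all genes, with Benjamini-Hochberg adjustment over the 19775 genes and a threshold of 0.05. Each fold change is a difference of log2 group means with its standard error (SE), from 3 arrays per group, and the number of arrays limits the precision. Levels of different probe sets cannot be compared with each other. In these bulk extracts, fewer cells expressing a gene and less RNA per cell cannot be told apart. Other choices were run beside the one used: a gene's probe sets averaged, its probe set of largest variance, probe sets named _x_at or _s_at left out (these can match several transcripts), quantile normalization, arrays centred on their medians, and only the groups compared. Beside each call that some of them ended, those that moved it most are named.

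CXCR4 read 7.06, 7.10 and 7.11 in shCXCR4_I and 6.39, 6.73 and 6.75 in shCXCR4_II, against 8.51, 8.60 and 8.64 in Mock and 8.42, 8.28 and 8.30 in Parental, so its level went with the labels. Array medians lay between 4.25 and 4.39, with interquartile ranges of 3.38 to 3.43 for Mock, against 3.19 to 3.31 for the 9 remaining arrays. All 10 epithelial markers measured were above the array median in each group, as were 6 of 10 fibroblast and endothelial markers and 3 or 4 of 8 leukocyte markers. The mean level of each list per array was 4.48 to 4.66 for fibroblast and endothelial and 3.81 to 4.11 for leukocyte markers. Single markers varied widely around these levels. Group means were 1.81 to 1.98 for LUM but 6.70 to 6.96 for COL1A1, and 3.01 to 3.13 for PTPRC but 5.15 to 5.54 for CD79A. Relative to Mock, 2 of 8 leukocyte markers rose (25%) and 0 fell in each clone. Of the 10 fibroblast and endothelial markers, 2 rose and 1 fell in shCXCR4_I (20% and 10%), and 3 rose and 0 fell in shCXCR4_II (30% and 0%). Of the 10 epithelial markers, 4 rose and 1 fell in shCXCR4_I (40% and 10%), and 1 rose and 4 fell in shCXCR4_II (10% and 40%). Over all genes 9.97% rose and 13.6% fell in shCXCR4_I, and 11% and 15.1% in shCXCR4_II. Between the clones 6 epithelial markers were higher in shCXCR4_I (60%, against 4.66% of all genes). The part of these markers in the results was not tested. The mean of the 10 epithelial markers was 9.55 to 9.60 in shCXCR4_I, 9.17 to 9.22 in shCXCR4_II, 9.36 to 9.46 in Mock and 9.28 to 9.29 in Parental. The GAPDH control probe sets differed between the 3′ and 5′ ends by 0.02 to 0.10 on the 12 arrays. Those of ACTB differed by 0.36 to 0.60, most on shCXCR4_I array 1 and Mock array 3. Of the 39 genes, 33 had a mean of at least 6, and SLC2A3, PDK4 and EGLN3 lay below the array medians in all 4 groups.

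Of the 6 genes of the lower pathway, GAPDH, PGK1 and PKM passed in none of the 6 comparisons between groups, and PGAM1, ENO1 and ENO2 passed in at least 1. Both lactate dehydrogenase genes passed in none. SLC2A1, HK2, the phosphofructokinase genes PFKL and PFKM, ALDOC, PDK1 and a set of HIF targets (CA12, BNIP3L, P4HA1, P4HA2, BHLHE40) rose in Mock relative to Parental. They fell in 1 or both clones relative to Mock. NDRG1 and MXI1 ran the other way, and ENO2 and ANKRD37 rose in each clone and in Mock relative to Parental. Some of these calls were lost with other probe sets or on leaving out 1 array, as given below for each gene. EPAS1, the gene of HIF-2 alpha, was lowest in the clones and highest in Parental.

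**Figure D1:**
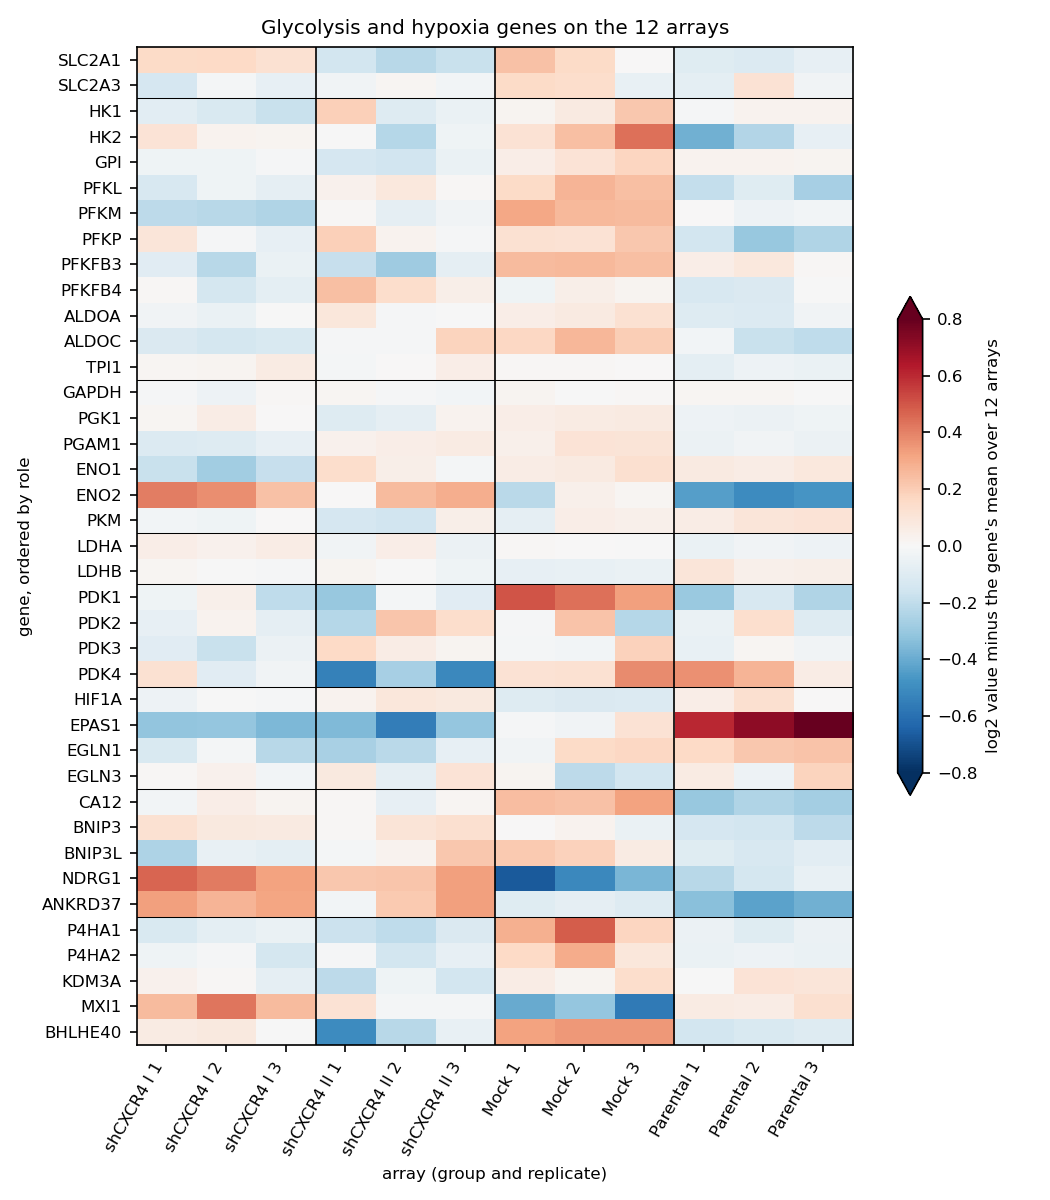
Log2 intensity of the 39 genes on each of the 12 arrays, as the difference from the gene's own mean over the 12 arrays; genes run down the page by role, and arrays run across as shCXCR4_I, shCXCR4_II, Mock and Parental. EPAS1 is low in both clones, ENO2 and ANKRD37 are high in shCXCR4_I, many upper-glycolysis genes are high in Mock, and GAPDH and LDHA stay near 0 on every array.

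Across all 4 groups, 24 of the 39 genes passed the F test (61.5%), against 35.1% of all genes. Since the genes were chosen with earlier results of these data known, these and the following shares only describe the list. The median spread between the highest and the lowest group mean was 0.28 for the 39 genes and 0.23 for all genes. Relative to Mock, 4 of 39 rose and 13 fell in shCXCR4_I (10.3% and 33.3%), where 9.97% and 13.6% of all genes did. In shCXCR4_II 4 rose and 14 fell relative to Mock (10.3% and 35.9%), against 11% and 15.1% of all genes. Mock relative to Parental gave 14 higher and 3 lower (35.9% and 7.69%), against 9.78% and 5.23% of all genes. The median fold change of the 39 genes was -0.15 in shCXCR4_I and -0.09 in shCXCR4_II relative to Mock, and 0.09 in Mock relative to Parental. Over all genes these medians were 0.02, 0.02 and 0.0005.

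Most of the 39 probe sets were bright, and bright probe sets as a whole were more often called lower in the clones than in Mock and higher in Mock than in Parental. Of the 8348 genes with a mean of at least 6, 10.3% rose and 26.9% fell in shCXCR4_I relative to Mock, and 7.98% rose and 29.1% fell in shCXCR4_II. Of the 33 glycolysis and hypoxia genes in that range, 4 rose and 12 fell in each clone (12.1% and 36.4%). In Mock relative to Parental, 18.1% of the bright genes rose and 7.01% fell, against 13 and 3 of the 33 (39.4% and 9.09%). The part of brightness and of the wider Mock arrays in these counts was not tested. Under quantile normalization 40% of the calls in shCXCR4_II relative to Mock were higher, against 22.2% as deposited, and centring each array on its median gave 10.5%. For Mock relative to Parental, 82.4% of the calls were higher as deposited and 71.4% after quantile normalization.

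Fewer of the 39 genes were called in the clones against Parental than against Mock, at 11 and 12 against 17 and 18. The same held over all 19775 genes. Of these, 15105 and 14607 were not called against Mock, and 16450 and 16422 were not called against Parental. Relative to Parental, 7 of the 39 rose and 4 fell in shCXCR4_I (17.9% and 10.3%), where 8.25% and 8.56% of all genes rose and fell. In shCXCR4_II 8 rose and 4 fell (20.5% and 10.3%), against 7.47% and 9.48% of all genes. Of the calls against Parental, 63.6% were higher in shCXCR4_I in the deposited values, 75% with quantile normalization and 55.6% with centring. For shCXCR4_II these shares were 66.7%, 71.4% and 54.5%. These comparisons share the clone arrays with those against Mock, so they are given side by side and not set against each other by a test. Mock held the highest group mean for 20 of the 39 genes (51.3%), against 27.9% of all genes and 46.1% of the bright genes. After quantile normalization it did so for 17 (43.6%, against 24.2% of all genes and 27.6% of the bright ones), and after centring for 27 (69.2%, against 40.6% and 59.7%).

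**Figure D2:**
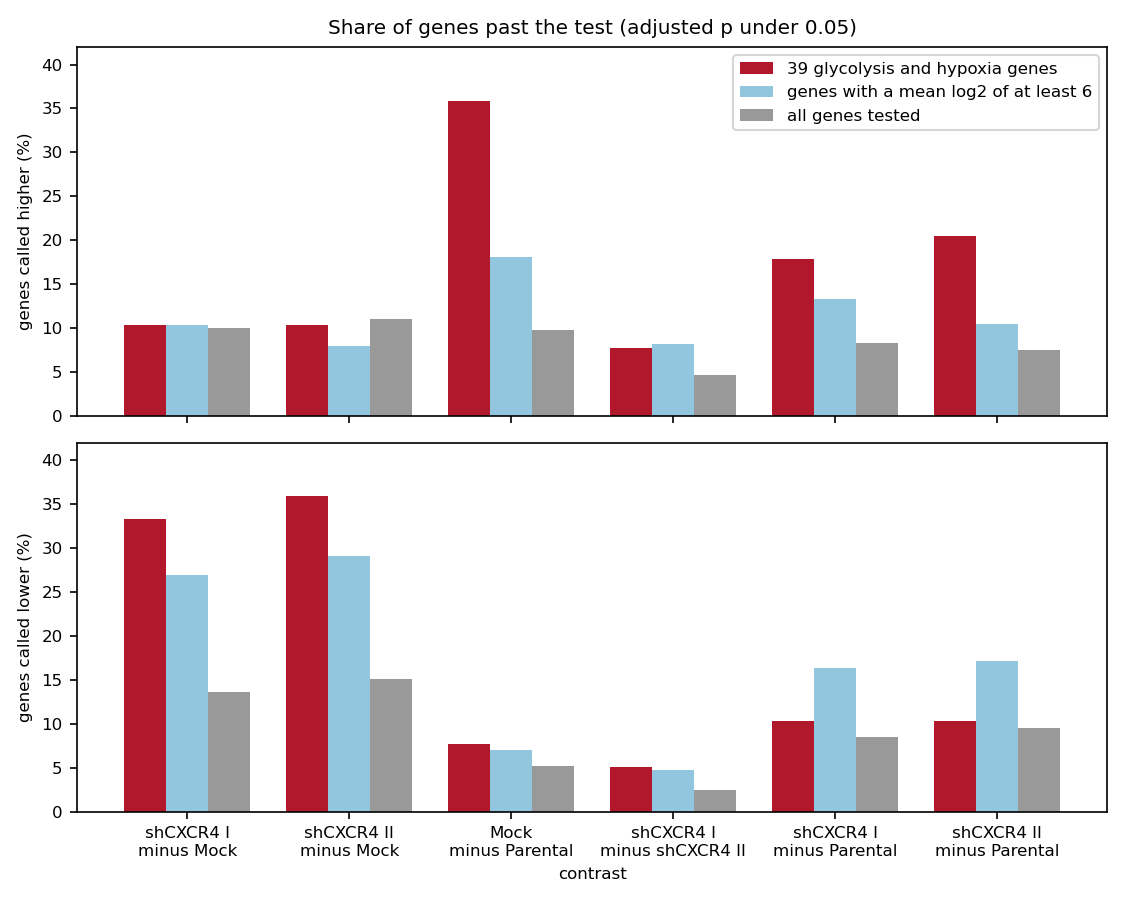
Share, in percent, of genes called higher or lower by limma in each of the 6 comparisons, for the 39 glycolysis and hypoxia genes, the 8348 genes with a mean of at least 6 and all 19775 genes. The 39 genes exceed all genes most in the share lower than Mock in each clone (33.3% and 35.9%) and the share higher in Mock than in Parental (35.9%).

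Glucose enters through the transporters SLC2A1 and SLC2A3. SLC2A1 read 8.99, 9.00 and 8.97 in shCXCR4_I and 8.70, 8.62 and 8.66 in shCXCR4_II, against 9.08, 9.00 and 8.85 in Mock and 8.74, 8.73 and 8.78 in Parental. Thus every shCXCR4_II array lay below every Parental array, though that difference did not pass (-0.09, limma adjusted p = 0.367). The shCXCR4_I arrays lay within the Mock range. SLC2A1 fell by 0.31 in shCXCR4_II relative to Mock (SE 0.06, limma adjusted p = 0.00318) and rose by 0.24 in shCXCR4_I relative to Parental (adjusted p = 0.0209) and by 0.22 in Mock relative to Parental (adjusted p = 0.0314). The calls against Parental were each lost on leaving out any of 5 arrays, with an adjusted p of up to 0.0718 in shCXCR4_I (any clone array, or Parental 1 or 2) and 0.108 in Mock (Mock 1 or 2, or any Parental array). Leaving out _x_at and _s_at probe sets, SLC2A1 stood at -0.11 in shCXCR4_II relative to Mock, and at 0.15 in shCXCR4_I and 0.14 in Mock relative to Parental, with no call (limma adjusted p = 0.33, 0.25 and 0.283). Quantile normalization gave -0.20 in shCXCR4_II relative to Mock and 0.17 in Mock relative to Parental, also with no call, and centring gave 0.21 in shCXCR4_I relative to Parental (adjusted p = 0.0527). SLC2A3 did not pass in any comparison, and its largest difference was -0.15.

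In the upper pathway, with 11 genes, every call between a clone and Mock was a fall and every call between Mock and Parental a rise. In shCXCR4_I relative to Mock 0 rose and 4 fell (PFKL, PFKM, PFKFB3 and ALDOC), or 36.4% lower against 13.6% of all genes. In shCXCR4_II 0 rose and 4 fell (HK2, GPI, PFKM and PFKFB3), or 36.4% against 15.1%. In Mock relative to Parental 5 rose and 0 fell (HK2, PFKL, PFKM, PFKP and ALDOC), or 45.5% higher against 9.78% of all genes. Most of the 11 genes had a mean of at least 6. Of all genes in that range, 26.9% fell in shCXCR4_I and 29.1% in shCXCR4_II relative to Mock. In Mock relative to Parental 18.1% of them rose. Mock held the highest group mean for 9 of the 11 (81.8%), against 27.9% of all genes and 46.1% of the bright genes. After quantile normalization it did so for 8 (72.7%, against 24.2% and 27.6%). After centring it did so for 10 (90.9%, against 40.6% and 59.7%). With quantile normalization the counts were 4 lower, 3 lower and 5 higher in these comparisons, where 9.24%, 9.47% and 7.3% of all genes were. With centring they were 8 lower, 6 lower and 7 higher, where 18.6%, 21.5% and 12.2% of all genes were.

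PFKM, the muscle-type subunit of phosphofructokinase, the committing step of glycolysis, fell in each clone relative to Mock. Its arrays read 8.56, 8.55 and 8.53 in shCXCR4_I and 8.78, 8.70 and 8.74 in shCXCR4_II, against 9.08, 9.03 and 9.02 in Mock and 8.77, 8.73 and 8.75 in Parental. Every Mock array lay above every other array, shCXCR4_II overlapped Parental, and shCXCR4_I lay below both. The fall was 0.50 in shCXCR4_I (SE 0.05, limma adjusted p = 1.86e-05) and 0.30 in shCXCR4_II (adjusted p = 0.00106), and PFKM rose by 0.29 in Mock relative to Parental (adjusted p = 0.00193). Relative to Parental it fell by 0.20 in shCXCR4_I (adjusted p = 0.0165), a call lost without shCXCR4_I array 2 or 3 or Parental array 1 or 3 (adjusted p up to 0.0629). Quantile normalization gave -0.15 for that comparison, with no call (limma adjusted p = 0.0839), and -0.20 in shCXCR4_II relative to Mock, which passed (adjusted p = 0.0238).

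PFKL, the liver-type subunit, fell by 0.30 in shCXCR4_I relative to Mock (SE 0.06, limma adjusted p = 0.0038) and rose by 0.40 in Mock relative to Parental (adjusted p = 0.000659). In shCXCR4_II it stood 0.18 below Mock (adjusted p = 0.0501) and rose by 0.23 relative to Parental (adjusted p = 0.0252, up to 0.113 without shCXCR4_II array 2 or Parental array 1 or 3). PFKP, the platelet-type subunit, differed from Mock by -0.15 in shCXCR4_I and -0.08 in shCXCR4_II, neither passing. Against Parental PFKP rose by 0.24 in shCXCR4_I, 0.30 in shCXCR4_II and 0.38 in Mock (limma adjusted p = 0.0386, 0.0121 and 0.00282). The first of these calls was lost without shCXCR4_I array 1 or 2 or Parental array 2 or 3 (adjusted p up to 0.156), and the second without Parental array 2 (0.0604). With probe sets averaged, PFKP stood at 0.12, 0.08 and 0.16 in these comparisons and PFKL at 0.15 in shCXCR4_II relative to Parental, none passing (limma adjusted p = 0.259, 0.442, 0.122 and 0.0593). Centring likewise ended the PFKL call in shCXCR4_II (adjusted p = 0.0832) and the PFKP call in shCXCR4_I (0.0568).

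PFKFB3 makes fructose 2,6-bisphosphate, the strongest activator of phosphofructokinase. It read 6.06, 5.92 and 6.09 in shCXCR4_I and 5.97, 5.87 and 6.08 in shCXCR4_II, against 6.40, 6.41 and 6.39 in Mock and 6.20, 6.23 and 6.16 in Parental. The arrays of both clones lay below every Parental array, which lay below every Mock array. PFKFB3 fell by 0.37 in shCXCR4_I (SE 0.07, limma adjusted p = 0.00135) and by 0.43 in shCXCR4_II (adjusted p = 0.000552) relative to Mock. Relative to Parental it fell by 0.23 in shCXCR4_II (adjusted p = 0.0336), which was lost without any Parental array or without shCXCR4_II array 1 or 2 (adjusted p up to 0.133), and stood at -0.17 in shCXCR4_I (adjusted p = 0.105). Its relative PFKFB4 differed only between shCXCR4_II and Parental among the 6 comparisons (0.22, limma adjusted p = 0.0377), and that call was lost on leaving out any of 5 arrays: shCXCR4_I 3, shCXCR4_II 1 or 2, or Parental 1 or 2 (adjusted p up to 0.127). It was also lost with probe sets averaged (0.11, limma adjusted p = 0.187) and with centring (adjusted p = 0.0826). With only the groups compared, neither PFKFB3 (0.0796) nor PFKFB4 (0.0894) passed in shCXCR4_II relative to Parental.

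The hexokinase genes encode the first enzyme of the pathway. HK2, the inducible form, read 8.93, 8.84 and 8.84 in shCXCR4_I and 8.81, 8.59 and 8.79 in shCXCR4_II, against 8.94, 9.06 and 9.26 in Mock and 8.43, 8.58 and 8.75 in Parental. The Mock arrays lay above all others, and shCXCR4_II overlapped Parental. HK2 rose by 0.50 in Mock relative to Parental (SE 0.10, limma adjusted p = 0.00354) and fell by 0.36 in shCXCR4_II relative to Mock (adjusted p = 0.0172). The second call was lost without shCXCR4_II array 2 or Mock array 3 (adjusted p up to 0.077). Another HK2 probe set, 239410_at, with a mean of only 3.36, went the opposite way in shCXCR4_II relative to Mock (0.43, limma adjusted p = 0.0314). With the HK2 probe sets averaged, the differences were 0.05 in shCXCR4_II relative to Mock and 0.07 in Mock relative to Parental, with no call (limma adjusted p = 0.583 and 0.532). Quantile normalization gave -0.25 in shCXCR4_II relative to Mock, also with no call (adjusted p = 0.0792).

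HK1, the housekeeping hexokinase, stood at -0.23 in shCXCR4_I relative to Mock (limma adjusted p = 0.0505) and did not pass in any comparison. GPI, which isomerises glucose 6-phosphate, fell by 0.22 in shCXCR4_II relative to Mock (SE 0.06, limma adjusted p = 0.0106). With only the groups compared, GPI did not pass (limma adjusted p = 0.0707). ALDOC, the aldolase of brain, fell by 0.34 in shCXCR4_I relative to Mock (SE 0.07, limma adjusted p = 0.00379) and rose by 0.34 in Mock relative to Parental (adjusted p = 0.00464). The general aldolase ALDOA and the triose phosphate isomerase TPI1 did not pass in any of the 6 comparisons. TPI1 differed by 0.03 between shCXCR4_I and Mock, with a 95% interval of -0.09 to 0.14, and ALDOA by -0.11, with an interval of -0.23 to 0.01.

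In the lower pathway most genes moved little. GAPDH, the glyceraldehyde phosphate dehydrogenase, read 13.03, 13.00 and 13.05 in shCXCR4_I and 13.06, 13.03 and 13.02 in shCXCR4_II, against 13.06, 13.04 and 13.05 in Mock and 13.06, 13.06 and 13.04 in Parental. All 12 values fell within the same narrow band. The difference from Mock was -0.02 in shCXCR4_I with a 95% interval of -0.13 to 0.09, and -0.01 in shCXCR4_II with an interval of -0.12 to 0.10. This level is near the highest values on these arrays, and its part in the small spread was not tested. PGK1, the first ATP-yielding step, and PKM, the pyruvate kinase, did not pass in any comparison on the probe set used, and their differences lay between -0.17 and 0.10. PGAM1, a phosphoglycerate mutase, fell by 0.18 in shCXCR4_I relative to Mock (limma adjusted p = 0.0254), a call lost without any shCXCR4_I array or without Mock array 2 or 3 (adjusted p up to 0.0776). PGAM1 was also not called with only the groups compared (limma adjusted p = 0.0537).

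The enolase genes moved apart. ENO1, the general enolase, read 11.77, 11.67 and 11.76 in shCXCR4_I, below all other arrays, and between 11.93 and 12.09 on the 3 shCXCR4_II arrays, against 12.01, 12.02 and 12.08 in Mock and 12.02, 12.01 and 12.03 in Parental. It fell by 0.30 in shCXCR4_I relative to Mock (SE 0.06, limma adjusted p = 0.00255) and by 0.29 relative to Parental (adjusted p = 0.0041). A second bright probe set, 217294_s_at, gave falls of 0.29 and 0.33 in the same comparisons (limma adjusted p = 0.0138 and 0.00729). Where probe sets marked as shared between transcripts were left out, the remaining ENO1 probe set gave 0.09 in shCXCR4_I relative to Mock (adjusted p = 0.657). It gave -0.23 relative to Parental (limma adjusted p = 0.289). With the ENO1 probe sets averaged, the difference from Mock was -0.13 (adjusted p = 0.113).

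ENO2, the neuronal enolase and a HIF target, read 7.81, 7.77 and 7.63 in shCXCR4_I and 7.40, 7.65 and 7.69 in shCXCR4_II, against 7.18, 7.44 and 7.42 in Mock and 6.96, 6.90 and 6.93 in Parental. The Parental arrays lay below all others, every shCXCR4_I array lay above Mock, and shCXCR4_II overlapped Mock. Relative to Parental ENO2 rose by 0.81 in shCXCR4_I (SE 0.09, limma adjusted p = 2.86e-05), by 0.65 in shCXCR4_II (adjusted p = 0.000199) and by 0.42 in Mock (adjusted p = 0.0062). These are 1.75-fold and 1.57-fold in the clones. Relative to Mock it rose by 0.39 in shCXCR4_I (adjusted p = 0.00636) and stood at 0.24 in shCXCR4_II (adjusted p = 0.0686).

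Lactate dehydrogenase showed no called difference. LDHA, the form that favours lactate, read 12.36, 12.34 and 12.36 in shCXCR4_I and 12.28, 12.35 and 12.26 in shCXCR4_II, against 12.31, 12.31 and 12.30 in Mock and 12.25, 12.27 and 12.26 in Parental. Its difference from Mock was 0.04 in shCXCR4_I (95% interval -0.07 to 0.16) and -0.01 in shCXCR4_II (-0.12 to 0.10). LDHB, the heart form, had differences between -0.12 and 0.06 in the 6 comparisons.

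**Figure D3:**
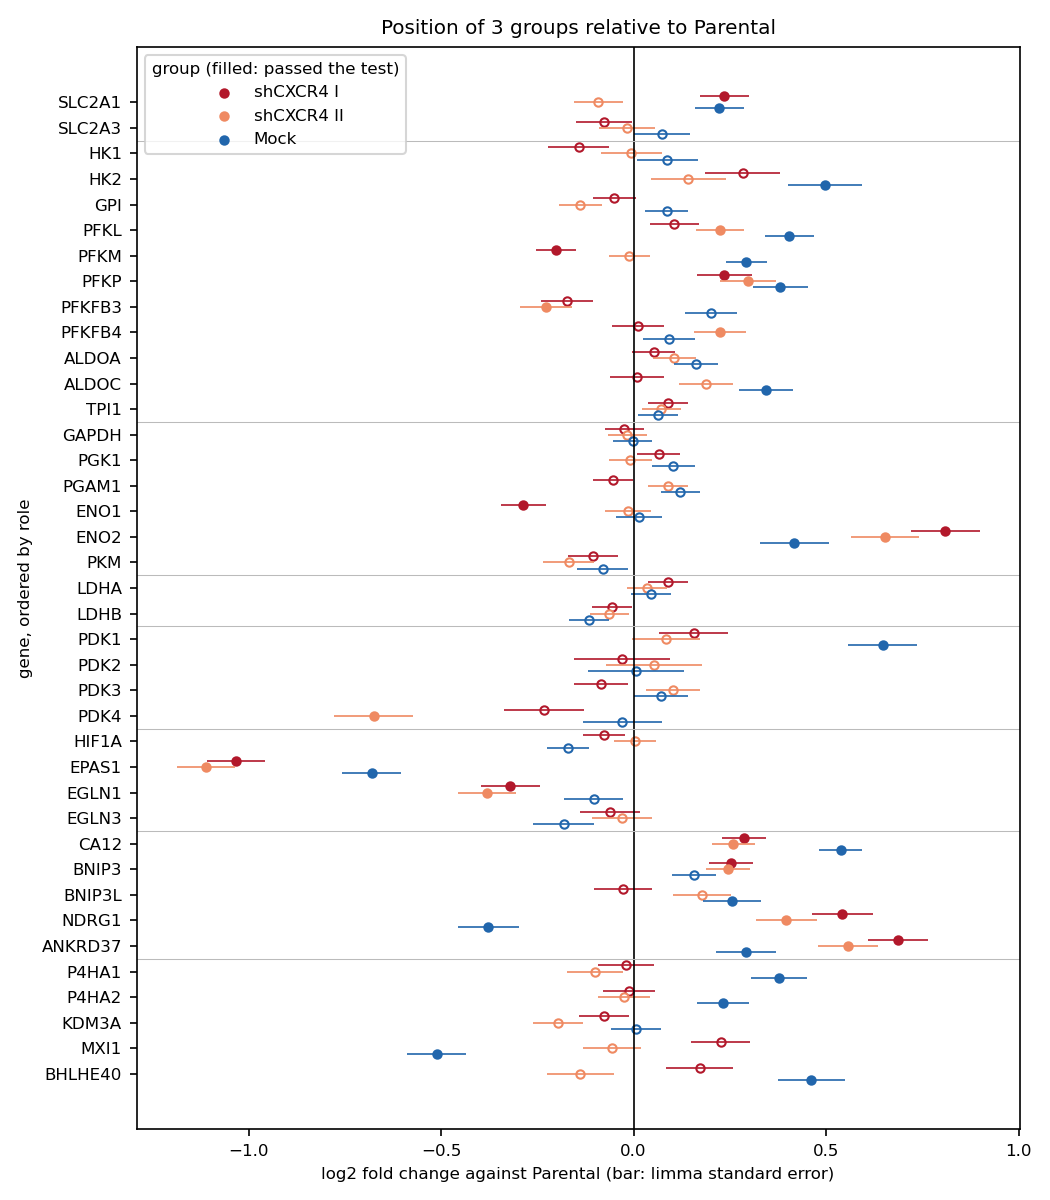
Log2 fold change of shCXCR4_I, shCXCR4_II and Mock against Parental for each of the 39 genes, ordered by role, with limma standard errors (3 arrays per group); filled points passed at an adjusted p under 0.05. EPAS1 lies at -1.03, -1.11 and -0.68, while PDK1, P4HA1 and BHLHE40 are displaced in Mock and near 0 in the clones.

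The pyruvate dehydrogenase kinases switch off pyruvate dehydrogenase and so keep pyruvate out of the mitochondria. PDK1, the HIF-induced kinase, read 5.40, 5.48 and 5.23 in shCXCR4_I and 5.14, 5.42 and 5.35 in shCXCR4_II, against 5.95, 5.88 and 5.77 in Mock and 5.14, 5.31 and 5.20 in Parental. Every Mock array lay above all 9 others, and the clones overlapped Parental. PDK1 fell by 0.49 in shCXCR4_I (SE 0.09, limma adjusted p = 0.00137) and by 0.56 in shCXCR4_II (adjusted p = 0.00057) relative to Mock, and rose by 0.65 in Mock relative to Parental (adjusted p = 0.000244). A dim second probe set, 239798_at, with a mean of 3.69, fell by 0.31 in Mock relative to Parental (adjusted p = 0.0354). With the PDK1 probe sets averaged, the differences were -0.16 in shCXCR4_I and -0.18 in shCXCR4_II relative to Mock and 0.20 in Mock relative to Parental, and all 3 calls were lost (limma adjusted p = 0.0915, 0.0652 and 0.0572).

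PDK4, the kinase induced by fasting and fatty acids, was near the floor of the arrays. It read 3.45, 3.23 and 3.30 in shCXCR4_I and 2.79, 3.06 and 2.81 in shCXCR4_II, against 3.44, 3.45 and 3.70 in Mock and 3.69, 3.60 and 3.39 in Parental. The shCXCR4_II arrays lay below all others. PDK4 fell by 0.65 in shCXCR4_II relative to Mock (SE 0.10, limma adjusted p = 0.00062) and by 0.68 relative to Parental (adjusted p = 0.000478). With the PDK4 probe sets averaged, it stood at -0.18 relative to Mock, with no call (limma adjusted p = 0.074), and at -0.26 relative to Parental, which passed (adjusted p = 0.0195). PDK2 and PDK3 did not pass in any comparison, and their differences lay between -0.19 and 0.10.

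HIF itself is a pair of an oxygen-regulated alpha subunit and a partner subunit. EPAS1 encodes HIF-2 alpha and had the widest spread of the 39 genes. It read 8.01, 8.02 and 7.97 in shCXCR4_I and 7.97, 7.77 and 8.01 in shCXCR4_II, against 8.32, 8.29 and 8.44 in Mock and 8.93, 9.04 and 9.13 in Parental. The arrays of both clones overlapped each other and lay below every Mock array, and every Mock array lay below every Parental array. Relative to Parental EPAS1 fell by 1.03 in shCXCR4_I (SE 0.08, limma adjusted p = 6.79e-07), by 1.11 in shCXCR4_II (adjusted p = 3.54e-07) and by 0.68 in Mock (adjusted p = 4.29e-05), which left 0.489 and 0.463 of the Parental signal in the clones. Relative to Mock it fell by 0.35 in shCXCR4_I (adjusted p = 0.00462) and 0.43 in shCXCR4_II (adjusted p = 0.0013). A dimmer probe set, 200879_s_at, fell by 0.69 in Mock relative to Parental (adjusted p = 0.0208) but stood at 0.38 in shCXCR4_I and 0.31 in shCXCR4_II relative to Mock, neither passing (adjusted p = 0.161 and 0.227). With the EPAS1 probe sets averaged, the differences from Mock were -0.04 in shCXCR4_I and -0.10 in shCXCR4_II, with no call (limma adjusted p = 0.716 and 0.339). Against Parental they were -0.49, -0.55 and -0.44 in shCXCR4_I, shCXCR4_II and Mock, all passing (limma adjusted p = 0.00055, 0.000261 and 0.00153).

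HIF1A, the gene of HIF-1 alpha, rose by 0.17 in shCXCR4_II relative to Mock (limma adjusted p = 0.0325) and stood at 0.09 in shCXCR4_I (adjusted p = 0.244). The call was lost without shCXCR4_II array 2 or 3 or without any Mock array (adjusted p up to 0.0919). Centring gave 0.10 for HIF1A in shCXCR4_II, with no call (limma adjusted p = 0.284). Relative to Parental, HIF1A stood at 0.005 in shCXCR4_II, -0.08 in shCXCR4_I and -0.17 in Mock. None of these passed (limma adjusted p = 0.965, 0.403 and 0.0536), nor did HIF1A pass the F test (adjusted p = 0.0597). HIF-1 alpha is controlled mainly through its protein, which these arrays do not measure. EGLN1, the main prolyl hydroxylase that senses oxygen, fell relative to Parental by 0.32 in shCXCR4_I (SE 0.08, limma adjusted p = 0.0103) and by 0.38 in shCXCR4_II (adjusted p = 0.00363). The first of these was lost without shCXCR4_I array 3 (adjusted p = 0.0552). It also fell by 0.28 in shCXCR4_II relative to Mock (adjusted p = 0.0176), which was lost without shCXCR4_II array 1 or 2 or Mock array 2 or 3 (adjusted p up to 0.0656). With the EGLN1 probe set of largest variance all 3 calls were lost, at -0.30 in shCXCR4_I and -0.05 in shCXCR4_II relative to Parental and -0.03 in shCXCR4_II relative to Mock (limma adjusted p = 0.258, 0.865 and 0.922). With probe sets averaged, EGLN1 stood at -0.21 in shCXCR4_II relative to Parental (adjusted p = 0.0479) and -0.08 relative to Mock (0.403), and quantile normalization gave -0.17 relative to Mock (0.0732). EGLN3, a HIF-induced hydroxylase of the same family, did not pass in any comparison.

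Promoters of these genes were examined for ACGTG and for GCGTG, the forms of the core of the HIF binding site, because many of these genes are known HIF targets. RefSeq windows of 300 bases on GRCh38.p14, from 250 before to 50 after a transcription start, were found for 36 of the 39 genes. ACGTG, on either strand and read as CACGT on the opposite one, was present in 25 of their 64 windows (39.1%) and in 21.4% of all 35116 windows. By gene it was present for 21 of 36 (58.3%) and for 24.9% of all 27305 genes, though genes with several windows have more chances. It was present for 14 of 22 genes past the F test and for 7 of 14 that were not. With GCGTG on either strand counted too, 65.6% of the 64 windows and 48.4% of all windows held a match, with 66.7% of the windows of genes past the F test and 64.3% of those of the other genes. A match is only a description of the letters in the window. Of the 6 promoters below, those of ANKRD37 and ENO2 belong to genes that rose in both clones relative to Parental. BHLHE40 and P4HA1 fell in both clones relative to Mock and did not pass in either clone relative to Parental. EPAS1 fell most relative to Parental, and PGK1 passed in no comparison. They lie at chr4:185396591-185396890 (ANKRD37), chr12:6914330-6914629 (ENO2), chr3:4979187-4979486 (BHLHE40), chr10:73096817-73097116 (P4HA1), chr2:46297157-46297456 (EPAS1) and chrX:78103998-78104297 (PGK1), on the plus strand except P4HA1 on the minus strand. Each is printed 5′ to 3′, with matches to ACGTG or CACGT in capitals.
ANKRD37: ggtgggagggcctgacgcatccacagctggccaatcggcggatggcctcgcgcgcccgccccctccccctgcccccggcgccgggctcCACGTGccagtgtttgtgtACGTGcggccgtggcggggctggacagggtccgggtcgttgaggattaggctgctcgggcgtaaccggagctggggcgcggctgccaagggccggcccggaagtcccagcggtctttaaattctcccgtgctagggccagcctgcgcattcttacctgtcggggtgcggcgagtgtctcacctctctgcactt
ENO2: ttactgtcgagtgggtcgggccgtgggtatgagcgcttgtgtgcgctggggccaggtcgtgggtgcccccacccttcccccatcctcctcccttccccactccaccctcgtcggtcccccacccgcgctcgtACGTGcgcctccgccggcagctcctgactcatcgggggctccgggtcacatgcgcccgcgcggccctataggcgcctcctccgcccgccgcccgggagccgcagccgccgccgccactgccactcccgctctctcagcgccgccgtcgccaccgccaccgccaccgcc
BHLHE40: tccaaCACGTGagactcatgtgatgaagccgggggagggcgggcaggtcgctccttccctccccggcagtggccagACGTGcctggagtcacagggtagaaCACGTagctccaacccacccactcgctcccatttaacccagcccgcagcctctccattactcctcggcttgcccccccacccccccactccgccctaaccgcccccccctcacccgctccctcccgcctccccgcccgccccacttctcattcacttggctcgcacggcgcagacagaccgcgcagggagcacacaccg
P4HA1: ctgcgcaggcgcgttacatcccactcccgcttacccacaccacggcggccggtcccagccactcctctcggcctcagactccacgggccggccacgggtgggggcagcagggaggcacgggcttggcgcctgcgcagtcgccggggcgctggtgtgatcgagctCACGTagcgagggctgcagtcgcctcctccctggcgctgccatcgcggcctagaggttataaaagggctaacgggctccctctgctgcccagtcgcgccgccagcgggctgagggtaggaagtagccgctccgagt
EPAS1: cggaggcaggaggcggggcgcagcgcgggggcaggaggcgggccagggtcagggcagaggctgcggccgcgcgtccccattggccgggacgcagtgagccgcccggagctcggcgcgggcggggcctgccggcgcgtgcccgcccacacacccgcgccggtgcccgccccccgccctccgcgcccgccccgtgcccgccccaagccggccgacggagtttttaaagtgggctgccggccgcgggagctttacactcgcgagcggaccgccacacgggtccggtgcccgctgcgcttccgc
PGK1: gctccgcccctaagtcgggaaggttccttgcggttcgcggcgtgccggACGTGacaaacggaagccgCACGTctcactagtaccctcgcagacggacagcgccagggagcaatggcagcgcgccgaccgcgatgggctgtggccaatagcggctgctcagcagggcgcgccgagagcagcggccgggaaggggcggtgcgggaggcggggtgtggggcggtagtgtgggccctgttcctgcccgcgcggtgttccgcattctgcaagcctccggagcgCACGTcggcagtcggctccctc
The window of BHLHE40 held 4 matches, those of ANKRD37 and PGK1 held 3 each, those of ENO2 and P4HA1 held 1 each, and that of EPAS1 held 0 of ACGTG. The other form, GCGTG, which is not in capitals, was found 1 time each in the windows of EPAS1 and PGK1 and 0 times in the other 4. Matches to ACGTG thus occurred in windows of genes that rose relative to Parental, of genes that fell relative to Mock and of PGK1.

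Among the stress, pH and mitophagy genes induced by HIF, NDRG1 had the largest rise in the clones relative to Mock. NDRG1 is a stress and differentiation gene studied as a suppressor of metastasis. It read 9.86, 9.81 and 9.72 in shCXCR4_I and 9.61, 9.62 and 9.72 in shCXCR4_II, against 8.72, 8.88 and 9.02 in Mock and 9.17, 9.25 and 9.34 in Parental. The clones lay above every Parental array, and Parental lay above every Mock array. NDRG1 rose by 0.92 in shCXCR4_I (SE 0.08, limma adjusted p = 3.07e-06) and by 0.77 in shCXCR4_II (adjusted p = 1.51e-05) relative to Mock, or 1.89-fold and 1.71-fold. It rose relative to Parental by 0.54 in shCXCR4_I (adjusted p = 0.000312) and 0.40 in shCXCR4_II (adjusted p = 0.00369), and fell by 0.38 in Mock relative to Parental (adjusted p = 0.00575).

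ANKRD37, a small ankyrin repeat gene known as a direct HIF-1 target, has the promoter with matches at 2 sites shown above. It read 7.02, 6.97 and 7.01 in shCXCR4_I and 6.67, 6.91 and 7.03 in shCXCR4_II, against 6.60, 6.63 and 6.60 in Mock and 6.36, 6.27 and 6.31 in Parental. The clones lay above every Mock array and Mock above every Parental array. Relative to Parental it rose by 0.69 in shCXCR4_I (SE 0.08, limma adjusted p = 3.49e-05) and by 0.56 in shCXCR4_II (adjusted p = 0.00024). Relative to Mock it rose by 0.39 in shCXCR4_I (adjusted p = 0.00255) and by 0.26 in shCXCR4_II (adjusted p = 0.0247), the second being lost without shCXCR4_II array 2 or 3 or any Mock array (adjusted p up to 0.0782). The rise of 0.29 in Mock relative to Parental (adjusted p = 0.0214) was lost without Mock array 2 or 3 or Parental array 2 or 3 (adjusted p up to 0.0794). With the ANKRD37 probe sets averaged, the differences relative to Mock were 0.18 in shCXCR4_I and 0.11 in shCXCR4_II, and that in Mock relative to Parental was 0.18, none passing (limma adjusted p = 0.0558, 0.228 and 0.0694). Relative to Parental, shCXCR4_I at 0.36 and shCXCR4_II at 0.29 still passed (limma adjusted p = 0.00116 and 0.00648). Centring gave 0.19 in shCXCR4_II relative to Mock (adjusted p = 0.134), and quantile normalization 0.23 in Mock relative to Parental (0.051).

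CA12, a carbonic anhydrase of the cell surface that helps tumour cells export acid, was highest in Mock. It read 10.22, 10.30 and 10.26 in shCXCR4_I and 10.25, 10.18 and 10.26 in shCXCR4_II, against 10.49, 10.48 and 10.57 in Mock and 9.94, 10.00 and 9.97 in Parental. The clones overlapped each other and lay between Mock and Parental without touching either. CA12 fell relative to Mock by 0.25 in shCXCR4_I (SE 0.06, limma adjusted p = 0.00553) and 0.28 in shCXCR4_II (adjusted p = 0.00289). With the CA12 probe sets averaged, these differences were -0.12 and -0.09, with no call (limma adjusted p = 0.0636 and 0.153). It rose relative to Parental by 0.29 in shCXCR4_I, 0.26 in shCXCR4_II and 0.54 in Mock (limma adjusted p = 0.00271, 0.00606 and 2.16e-05). The CA12 probe set of largest variance gave -0.39 in shCXCR4_I relative to Mock and 0.43 in shCXCR4_II relative to Parental, both passing (limma adjusted p = 0.00869 and 0.00526).

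The mitophagy receptors BNIP3 and BNIP3L differed in pattern. BNIP3 read 9.42, 9.38 and 9.37 in shCXCR4_I and 9.31, 9.41 and 9.43 in shCXCR4_II, against 9.31, 9.33 and 9.25 in Mock and 9.17, 9.15 and 9.09 in Parental. Parental lay below all other arrays, and shCXCR4_II overlapped Mock. BNIP3 rose by 0.25 in each clone relative to Parental (SE 0.06, limma adjusted p = 0.00739 in shCXCR4_I and 0.00956 in shCXCR4_II). With the BNIP3 probe set of largest variance, shCXCR4_I did not pass (0.21, limma adjusted p = 0.116). BNIP3L fell by 0.28 in shCXCR4_I relative to Mock (limma adjusted p = 0.0154) and rose by 0.26 in Mock relative to Parental (adjusted p = 0.0354). The first was lost without shCXCR4_I array 1 or Mock array 1 or 2 (adjusted p up to 0.0725) and the second without Mock array 1 or 2 or any Parental array (up to 0.104). Quantile normalization also ended both BNIP3L calls, at -0.18 and 0.20 (limma adjusted p = 0.0689 and 0.0608). A second BNIP3L probe set, 221478_at, fell by 0.57 in shCXCR4_I and 0.44 in shCXCR4_II relative to Mock (limma adjusted p = 0.000541 and 0.00363).

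**Figure D4:**
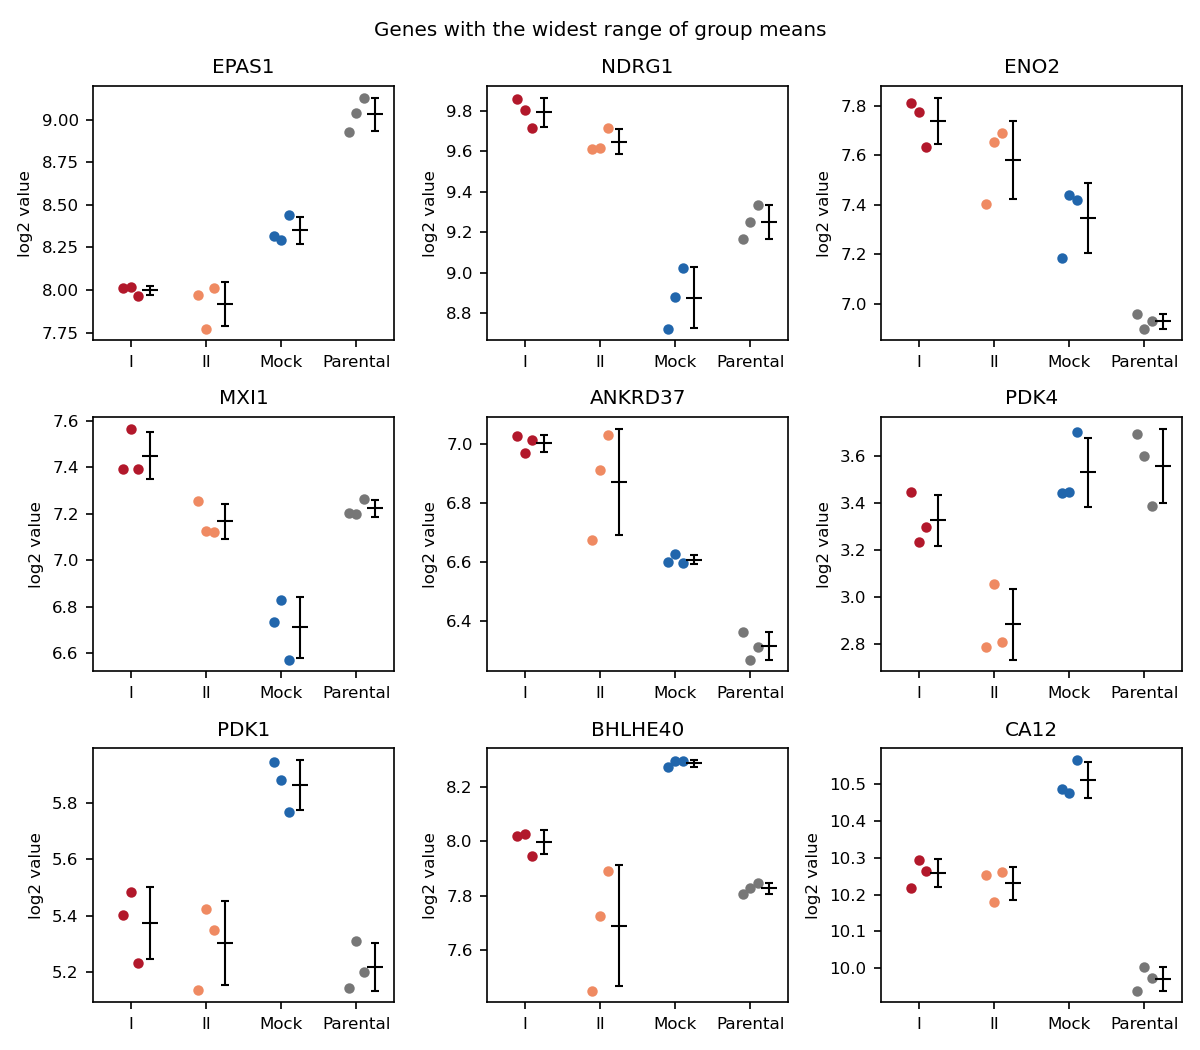
Log2 intensity on each of the 12 arrays for the 9 genes past the F test whose group means spread by at least 0.5; points are arrays in the order shCXCR4_I, shCXCR4_II, Mock and Parental, and bars are group means ± SD (n = 3), on an axis of its own for each gene. PDK1, CA12 and BHLHE40 peak in Mock, NDRG1 and MXI1 are lowest there, and EPAS1 is highest in Parental.

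The collagen prolyl hydroxylase subunits, which HIF induces and which prepare collagen for secretion, moved together. P4HA1 read 8.94, 8.98 and 9.01 in shCXCR4_I and 8.89, 8.86 and 8.95 in shCXCR4_II, against 9.35, 9.55 and 9.23 in Mock and 9.01, 8.96 and 9.02 in Parental. Mock lay above all other arrays. P4HA1 fell relative to Mock by 0.40 in shCXCR4_I (SE 0.07, limma adjusted p = 0.00156) and by 0.48 in shCXCR4_II (adjusted p = 0.000456), and rose by 0.38 in Mock relative to Parental (adjusted p = 0.00325). With _x_at and _s_at probe sets removed, P4HA1 stood at -0.11 in shCXCR4_I and -0.02 in shCXCR4_II relative to Mock and at 0.15 in Mock relative to Parental, and all 3 calls were lost (limma adjusted p = 0.268, 0.876 and 0.146). With probe sets averaged, it was -0.25 in each clone relative to Mock and passed (limma adjusted p = 0.0021 and 0.0027). P4HA2 fell by 0.24 in shCXCR4_I and 0.26 in shCXCR4_II relative to Mock and rose by 0.23 in Mock relative to Parental (limma adjusted p = 0.0183, 0.0138 and 0.0328). Those P4HA2 calls were lost without shCXCR4_I array 3 or Mock array 2 (0.0846 at most), without shCXCR4_II array 2 or Mock array 2 (0.0611), and without Mock array 1 or 2 or any Parental array (0.135). Quantile normalization also ended all 3 P4HA2 calls, at -0.14, -0.13 and 0.17 (limma adjusted p = 0.155, 0.167 and 0.101). So did averaging the probe sets (-0.17, -0.17 and 0.14) and the probe set of largest variance (-0.17, -0.27 and 0.10).

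KDM3A, a HIF-induced histone demethylase, fell by 0.20 in shCXCR4_II relative to Mock (limma adjusted p = 0.0368), which was lost without shCXCR4_II array 1 or 3 or Mock array 1 or 3 (adjusted p up to 0.12). Quantile normalization gave -0.08 for KDM3A, with no call (limma adjusted p = 0.457), and the replicate number as a block gave an adjusted p of 0.0506. MXI1, a repressor that opposes MYC, read 7.39, 7.57 and 7.39 in shCXCR4_I and 7.25, 7.12 and 7.12 in shCXCR4_II, against 6.73, 6.83 and 6.57 in Mock and 7.20, 7.20 and 7.26 in Parental. Mock lay below all other arrays, shCXCR4_I lay above them, and shCXCR4_II overlapped Parental. MXI1 rose relative to Mock by 0.74 in shCXCR4_I (SE 0.08, limma adjusted p = 1.55e-05) and 0.46 in shCXCR4_II (adjusted p = 0.000894), and fell by 0.51 in Mock relative to Parental (adjusted p = 0.000507).

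BHLHE40, a circadian and hypoxia-induced transcriptional repressor, has the promoter with matches at 3 sites shown above. It read 8.02, 8.03 and 7.95 in shCXCR4_I and 7.45, 7.73 and 7.89 in shCXCR4_II, against 8.27, 8.30 and 8.29 in Mock and 7.81, 7.83 and 7.85 in Parental. Mock lay above all other arrays, shCXCR4_I lay between Mock and Parental, and shCXCR4_II straddled Parental. BHLHE40 fell relative to Mock by 0.60 in shCXCR4_II (SE 0.09, limma adjusted p = 0.000336) and rose by 0.46 in Mock relative to Parental (adjusted p = 0.00295). In shCXCR4_I it fell by 0.29 relative to Mock (adjusted p = 0.0287), a call lost on leaving out any of the 6 arrays compared (adjusted p up to 0.0983). It was also lost under quantile normalization (-0.19, limma adjusted p = 0.0925).

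Between the clones, 3 of the 39 genes were higher in shCXCR4_I (7.69%) and 2 lower (5.13%), against 4.66% and 2.48% of all genes. SLC2A1, PDK4 and MXI1 were higher in shCXCR4_I than in shCXCR4_II, by 0.33, 0.44 and 0.28 (SE 0.06, 0.10 and 0.08; limma adjusted p = 0.0071, 0.0199 and 0.0414). ENO1 and PFKM were lower in shCXCR4_I, at -0.27 and -0.19 (SE 0.06 and 0.05; limma adjusted p = 0.0142 and 0.0435). Leaving out any 1 of the 12 arrays ended the PFKM call (adjusted p up to 0.134), and 9 of the 12 ended the MXI1 call (up to 0.178), all but shCXCR4_II array 1 and Mock arrays 2 and 3. PDK4 was lost without array 1 or 3 of either clone (up to 0.0928) and ENO1 without shCXCR4_I array 2 (0.0733), while SLC2A1 passed whichever array was left out. On leaving out _x_at and _s_at probe sets SLC2A1 was 0.12 and ENO1 -0.02, and with probe sets averaged PDK4 was 0.13 and ENO1 -0.17, none passing (limma adjusted p = 0.48, 0.963, 0.319 and 0.099). Quantile normalization ended the MXI1 call (adjusted p = 0.0636) and centring the PFKM call (0.0914). With the replicate number as a block, MXI1 (0.0529) and PFKM (0.0694) did not pass. The other 34 genes did not pass between the clones, EPAS1 among them (0.08, 95% interval -0.09 to 0.24).

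Many of these genes have further probe sets on the array. Of the 17 genes called in shCXCR4_I relative to Mock, 10 had another probe set, and for 4 of these at least 1 other probe set was called the same way. In shCXCR4_II relative to Mock 12 of 18 had another, 2 with a like call and 2 (HK2 and CA12) with an opposite one. In Mock relative to Parental 12 of 17 had another, 4 with a like call and 1 (PDK1) with an opposite one. The opposite CA12 call came from 241230_at at a mean of 4.20 (0.36, limma adjusted p = 0.0446), against falls of 0.33 for 204508_s_at and 0.32 for 210735_s_at (adjusted p = 0.019 and 0.0091).

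**Figure D5:**
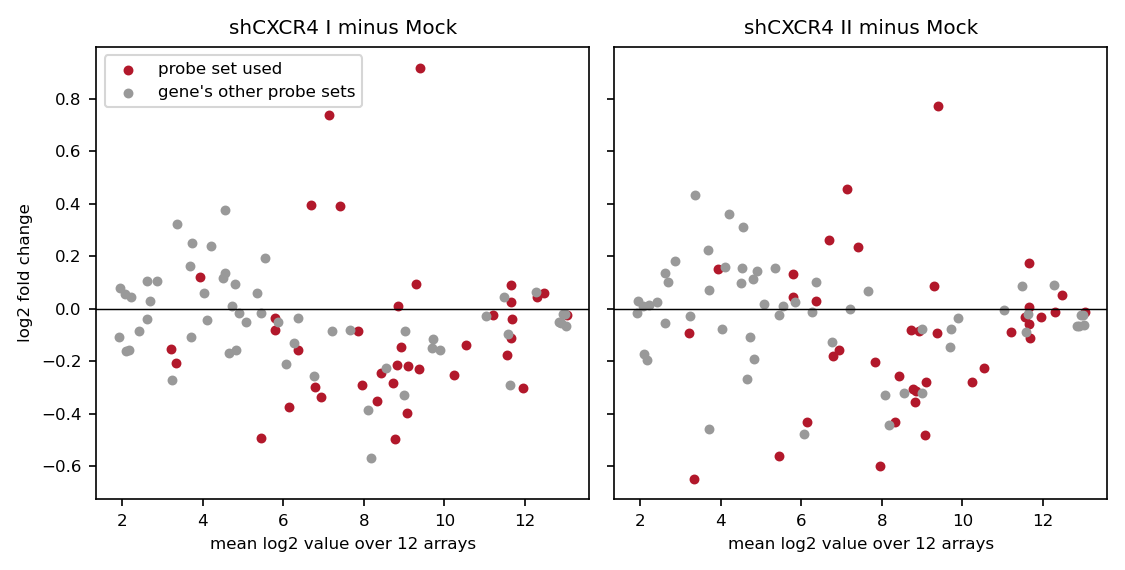
Log2 fold change of shCXCR4_I and of shCXCR4_II against Mock plotted by mean log2 value over the 12 arrays, for the probe set used for each of the 39 genes (red) and for the genes' other probe sets (grey). NDRG1 lies highest in each panel, at 0.92 and 0.77, and the lowest grey point against Mock in shCXCR4_I is BNIP3L's 221478_at at -0.57.

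Other genes of these pathways, listed by role, were counted as well, beginning with further hypoxia-induced genes. These lists too were drawn up with earlier results of these data known, so their shares are descriptions. Of 33 such genes, 3 rose and 13 fell in shCXCR4_I relative to Mock (9.09% and 39.4%, against 9.97% and 13.6% of all genes). In shCXCR4_II 3 rose and 17 fell (9.09% and 51.5%, against 11% and 15.1%), and the median fold changes were -0.17 and -0.22. In Mock relative to Parental 9 rose and 6 fell (27.3% and 18.2%, against 9.78% and 5.23%). The rises relative to Mock were thus near the share over all genes. Of the genes with a mean of at least 6, 26.9% fell in shCXCR4_I and 29.1% in shCXCR4_II relative to Mock. In Mock relative to Parental, 18.1% of those genes rose and 7.01% fell. The part of brightness in the counts of this list and of those below was not tested. STC1, a secreted calcium-regulating glycoprotein, fell by 1.03 in shCXCR4_I and 1.08 in shCXCR4_II relative to Mock (limma adjusted p = 2.84e-08 and 1.68e-08). CCNG2, an atypical cyclin of arrested cells, fell by 0.33 and 0.51 relative to Mock and by 0.63 in Mock relative to Parental.

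Of 18 other glycolysis enzymes and regulators, 3 rose and 1 fell in shCXCR4_I relative to Mock (16.7% and 5.56%, against 9.97% and 13.6% of all genes). In shCXCR4_II 5 rose and 2 fell (27.8% and 11.1%, against 11% and 15.1%). HKDC1, a hexokinase-like gene, rose by 0.56 in shCXCR4_I and 1.03 in shCXCR4_II relative to Mock and fell by 0.87 in Mock relative to Parental. PFKFB2, a relative of PFKFB3, rose by 0.44 in shCXCR4_I relative to Parental. Of 15 transporters of glucose, lactate and pyruvate, 1 rose and 0 fell in shCXCR4_I (6.67% and 0%), and 2 rose and 2 fell in shCXCR4_II (13.3% each), relative to Mock, near or below the shares over all genes. SLC2A12 rose by 0.75 in shCXCR4_I relative to Mock. MPC1, a subunit of the mitochondrial pyruvate carrier, rose relative to Parental by 0.52 in Mock, 0.40 in shCXCR4_I and 0.31 in shCXCR4_II.

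Of 17 genes of oxygen sensing and the HIF machinery, 2 rose and 5 fell in shCXCR4_I relative to Mock (11.8% and 29.4%, against 9.97% and 13.6% of all genes). In shCXCR4_II 2 rose and 3 fell (11.8% and 17.6%), near the 11% and 15.1% of all genes. HIF1AN, the asparaginyl hydroxylase that blocks HIF activity, fell by 0.47 in shCXCR4_I and 0.44 in shCXCR4_II, and CREBBP, a HIF coactivator, fell by 0.49 and 0.29. Of 10 pentose phosphate pathway genes, 2 rose and 4 fell in shCXCR4_I (20% and 40%) and 1 rose and 2 fell in shCXCR4_II (10% and 20%) relative to Mock. PGD, an NADPH-making enzyme of that pathway, fell by 0.46 in shCXCR4_I, and RPE, its epimerase, fell by 0.26 and 0.37 in the clones. Of 22 pyruvate dehydrogenase and citric acid cycle genes, 2 rose and 5 fell in shCXCR4_I (9.09% and 22.7%) and 2 rose and 3 fell in shCXCR4_II (9.09% and 13.6%) relative to Mock, the second pair near the shares over all genes. In Mock relative to Parental 3 of the 22 fell (13.6%, against 5.23% of all genes) and 0 rose, among them PDP1, the phosphatase that reverses the pyruvate dehydrogenase kinases (a fall of 0.79), and SUCLA2, a subunit of succinyl-CoA synthetase (0.54). Of 19 respiratory chain genes, 2 rose and 1 fell in shCXCR4_I (10.5% and 5.26%) and 0 rose and 2 fell in shCXCR4_II (0% and 10.5%) relative to Mock, near or below the shares over all genes. NDUFS1, a complex I subunit, fell by 0.30 and 0.41 in the clones. NDUFV1, also of complex I, rose by 0.28 in Mock relative to Parental.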

How the data were processed

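RNA of 12 samples was hybridised to 12 Affymetrix U133 Plus 2.0 arrays, 6 µg of total RNA each. The authors deposited log2 values per probe set, made by RMA in R 2.6.0 per the submitters' processing notes; the chip definition is not given in the sources used here. No further normalization was applied. Of 54675 probe sets, 41097 carried 1 gene symbol, 1801 several and 11777 none, and 41043 matched by Entrez number. Each gene took its probe set with the highest mean, which gave 19775 genes. With limma 3.58.1 in R 4.3.3, a group-means model on all 12 arrays (lmFit, eBayes, 8 residual and 5.19 prior degrees of freedom) gave 6 contrasts and an F test, checked on simulated data. The genes, roles and lists were chosen with earlier results of these data known. Named with array values were genes past the F test whose group means spread by at least 0.5, with others added after their values were seen. From each further list came the 2 genes of widest spread past F with a highest group mean above the median of all 19775 genes. Of those lists, 12 genes were not analysed here. Replicate numbers were not used to pair samples, since the labels give no batch behind them. The correlations of deviations between same-numbered arrays were -0.11 to 0.15 over 18 pairs. With 3 arrays per group these cannot exclude shared handling. Promoters came from RefSeq on GRCh38.p14.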

Additional observations from a re-analysis of the deposited data

Results flagged for a closer look

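The clones were each set against the same Mock arrays, and for 5 genes the effect in shCXCR4_I differed from that in shCXCR4_II by the limma contrast between the clones. SLC2A1 differed by 0.33, since it stood at 0.01 in shCXCR4_I and -0.31 in shCXCR4_II relative to Mock. PFKM differed by -0.19 (-0.50 in shCXCR4_I and -0.30 in shCXCR4_II), and its call was lost without any 1 of the 12 arrays (limma adjusted p up to 0.134). ENO1 differed by -0.27 (-0.30 and -0.03), PDK4 by 0.44 (-0.20 and -0.65) and MXI1 by 0.28 (0.74 and 0.46). The MXI1 call was lost without 9 of the 12 arrays (limma adjusted p up to 0.178), the PDK4 call without 4 (up to 0.0928) and the ENO1 call without 1 (0.0733). The SLC2A1 call held without any 1 array and was lost with probe sets named _x_at or _s_at left out (0.12, limma adjusted p = 0.48). Each clone carries its own hairpin, so hairpin and clone cannot be told apart. Groups of 3 arrays were too small for a test of single outlying arrays.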

How the results depend on the processing

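Of the 80 calls of single genes, 53 held at an adjusted p under 0.01, 55 with a gene's probe sets averaged, 59 with the probe set of largest variance, 66 after quantile normalization, 73 after centring and 80 with a trended and robust eBayes. With probe sets named _x_at or _s_at left out, 44 of the 58 still measurable held, with fewer genes measured: 9 genes were called in shCXCR4_I relative to Mock (17 as reported), 10 in shCXCR4_II (18), 6 in shCXCR4_I relative to Parental (11), 1 between the clones (5) and 15 by the F test (24). An adjusted p under 0.01 left 11 in shCXCR4_II relative to Mock, 7 in shCXCR4_I relative to Parental and 1 between the clones. The probe set of largest variance gave 7 in shCXCR4_I relative to Parental and 2 between the clones. Between the clones the count was also 3 with probe sets averaged, 8 with only genes of mean at least 6, 8 with a trended and robust eBayes, 2 with only the groups compared and 2 to 4 without 1 array. With the replicate number as a block it was 3, and 75 of the 80 calls held. Directions turned for HK2 in shCXCR4_II relative to Mock (0.0502 with probe sets averaged, 0.43 with largest variance), for HK2 in Mock relative to Parental (-0.11, largest variance) and for ENO1 in shCXCR4_I relative to Mock (0.0945 with largest variance and without _x_at and _s_at probe sets). PGK1 in shCXCR4_II relative to Parental became 0.27 without _x_at and _s_at probe sets, and PDK3 in shCXCR4_II became -0.46 relative to Mock and -0.45 relative to Parental with largest variance. In these cases a different probe set was read; the cause was not tested. Dim probe sets limit PDK4, SLC2A3 and EGLN3.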
